A study of Mus musculus with 7 samples.

Results

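Compact myelin, the sheath that oligodendrocytes wrap around axons of the central nervous system, is built from a small set of proteins and from galactolipids and cholesterol. The genes described here are Mbp, Mobp and Mal (proteins of the compact sheath), Mog, Mag and Cldn11 (proteins of its surface and its contacts), Cnp and Ugt8a (enzymes) and Bcas1, a gene of oligodendrocytes. They are 9 of the 18278 genes that could be named on the arrays of a comparison of mouse brain and mouse kidney. A probe set was taken as theirs where the array's annotation gave it that single gene symbol.

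Total RNA of dissected whole brain and of kidneys was labelled with biotin, from 8 micrograms for brain and 6.75 for kidney. Sense transcripts were read on the Affymetrix 430A and 430B arrays for brain and on the 430 2.0 array, which carries the same probe sets, for kidney. Transcripts of the opposite strand were read in both tissues on the reverse-oriented probe sets of the early U74A and U74B arrays. The animals were given no treatment that the labels name, and strain, age and sex are not given in the sources used here. Each tissue had 1 array per design, 7 arrays in all, so no value has a replicate error and no p-value is given. Values are MAS5 signals, Affymetrix's linear summary of a probe set's brightness. A level cannot be compared between probe sets, since each binds its RNA with its own strength, so the comparisons below are between tissues for the same probe set.

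Oligodendrocytes are cells of the central nervous system and not of the kidney, and myelin proteins are among the defining transcripts of the mature oligodendrocyte. Outside the brain, Mal serves in sorting proteins to the apical membrane of epithelial cells, and Ugt8a makes galactosylceramide, from which kidney also makes sulfatide. In whole tissue, fewer cells of a type and less RNA per cell cannot be told apart.

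For ratios, each brain array was centred on the kidney array (shifts of -0.84 for 430A and 2.08 for 430B on the log2 scale were removed), and signals under a floor were raised to it. In kidney array units the floor was 186.4 on 430A and 28.6 on 430B, and a fold is given as at least N-fold where kidney lay under it. A difference of 2-fold or more was counted as higher in that tissue. Array type and tissue cannot be told apart in the sense comparison. The 100 probe sets present on both brain arrays are the only repeat reading of 1 tissue. Their log2 difference had an SD of 0.25 (98 probe sets above both medians), and none of them belongs to a myelin gene.

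Of the 9 genes, 8 were 2-fold or more higher in brain, none was in kidney, and Mal was in neither. The background over all 12913 genes past the floor was 18.2% on the brain side and 26.4% on the kidney side. With 430B brought to the scale of 430A, the median log2 ratio of all genes moved from -0.08 to 0.29, and these shares to 26.6% and 15.7%. The myelin genes gave 8 and none again, but only Mobp and Bcas1 stood by a probe set on 430B. The ratios of the other members could not change under this setting. The median log2 ratio of the 9 genes was 3.63, the value of Mag, which is a lower bound. By probe set, 22 of 26 were higher in brain, 1 was in neither tissue and 3 lay below the floor in both. The background by probe set was 19.2% on the brain side and 22.4% on the kidney side. Kidney signals lay below the floor for 19 of the 26 probe sets, so 16 of the ratios are lower bounds.

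**Figure D1:**
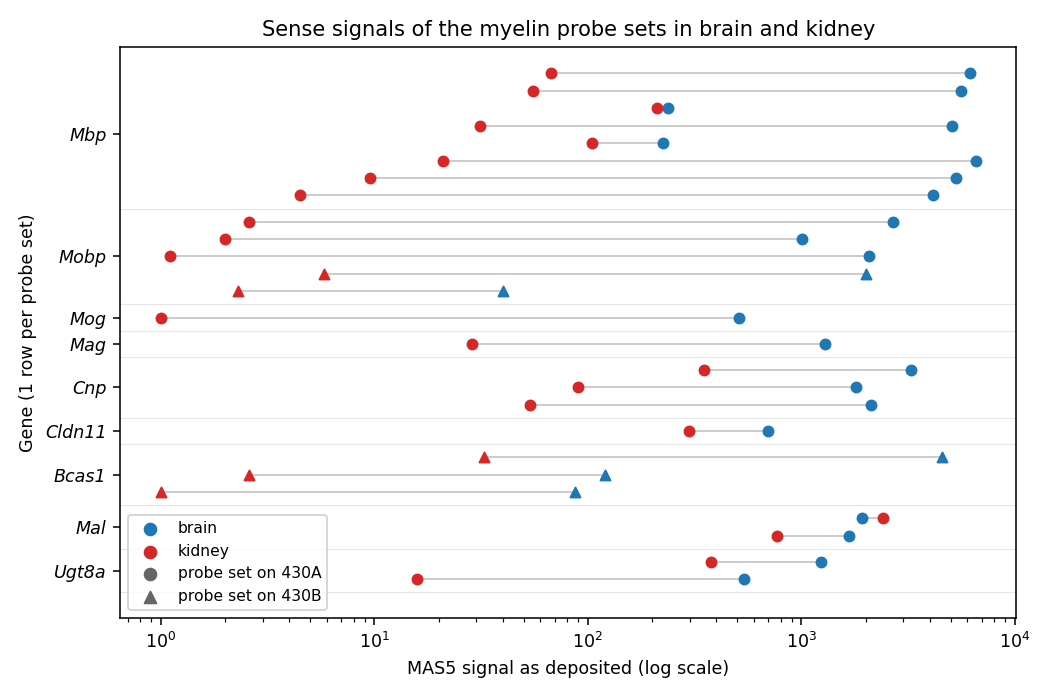
Deposited MAS5 signals (log axis) of the 26 sense probe sets of the 9 myelin genes, 1 row per probe set, in brain (blue) and kidney (red), with circles for 430A and triangles for 430B. Brain lies to the right of kidney in 25 of 26 rows, and the exception is a probe set of Mal, at 1916 in brain and 2416.6 in kidney.

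Mbp, myelin basic protein, holds the cytoplasmic faces of the sheath together. Its 8 probe sets, all on 430A, fell into unlike sets. In brain 6 of them read 6544.7, 6184, 5574.6, 5285.5, 5095.3 and 4121.1. In the same order they read 20.9, 67.3, 55.2, 9.5, 31.2 and 4.5 in kidney. All 6 were far higher in brain, by at least 39.6-fold to at least 62.9-fold, with kidney below the floor each time. The other 2, with neighbouring identifiers (1425263_a_at and 1425264_s_at), read 224.6 and 238.2 in brain against 104.7 and 211.5 in kidney. They were at least 2.16-fold and 2.02-fold higher in brain, just past the threshold. Both fell short of it with signals as deposited (log2 ratios of 0.89 and 0.17), the second did so with quantile normalization (0.82), and both lay below a floor set at the 75th percentile. The log2 ratios of the gene's probe sets thus ran from 1.01 to 5.98. The mark _s_at denotes a probe set that can also bind transcripts of other genes. Among the high probe sets, those that read 5285.5, 5095.3 and 4121.1 in brain carry the mark _x_at, whose probes can partly bind other transcripts.

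Mobp, a small basic protein of the compact sheath, was read by 3 probe sets on 430A and 2 on 430B. On 430A it read 2682.3, 2064.9 and 1002.7 in brain against 2.6, 1.1 and 2 in kidney, at least 25.8-fold, 19.9-fold and 9.64-fold higher in brain. On 430B, 1 probe set read 1999.1 against 5.8, at least 16.5-fold higher. The other read 40.2 against 2.3 and lay below the floor in both tissues. Every kidney signal of Mobp was 5.8 or less, so each ratio is set by the floor and by the brain signal.

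Mal, a membrane protein of lipid rafts, was the only one of the 9 genes with a kidney signal above its brain signal, and only by 1 of its 2 probe sets. The first probe set (1417275_at) read 1916 in brain against 2416.6 in kidney, and the second (1432558_a_at) 1674.6 against 770. After centring, their log2 ratios were 0.51 (1.42-fold, under the threshold) and 1.96 (3.90-fold higher in brain). The 2 probe sets differed by 1.46 on the log2 scale. With signals as deposited, the first gave -0.33 and the second 1.12, so the direction for Mal turned with the scaling and the probe set. With quantile normalization the first probe set reached 1.01, past the threshold.

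Of the proteins on the sheath's surface and at its contacts, each had a single sense probe set, on 430A. Mog, a glycoprotein of the outermost layer, read 508.6 in brain against 1 in kidney, a fold of at least 4.89. With the floor at the 75th percentile its log2 ratio was 0.99, under the threshold. Mag, the adhesion protein between the innermost layer and the axon, read 1286.3 and 28.8, at least 12.4-fold higher. Cldn11, the claudin of the tight junctions between myelin layers, read 694.8 and 299.3, 4.16-fold higher in brain, with kidney above the floor. These 3 genes were on the brain side, and Cldn11 alone among them had a kidney signal above the floor.

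Cnp, the cyclic nucleotide phosphodiesterase of uncompacted myelin, read 3252.5, 2129.9 and 1794.8 in brain against 349.1, 53.4 and 90.3 in kidney. Its 3 probe sets were 16.7-fold, at least 20.5-fold and at least 17.3-fold higher in brain. Their log2 ratios spanned only 0.29, from 4.06 to 4.36. The kidney signal above the floor came from a probe set with the mark _x_at, whose probes can partly bind other transcripts. Ugt8a, the transferase that makes galactosylceramide, read 1234.3 and 536.7 in brain against 375.7 and 15.9 in kidney. Its probe sets were 5.89-fold and at least 5.16-fold higher in brain, and only the first had a kidney signal above the floor.

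Bcas1 was read on 430B alone. Its first probe set read 4539.4 in brain and 32.7 in kidney, 32.7-fold higher in brain after centring. The other 2 read 120.7 and 87.3 in brain against 2.6 and 1 in kidney and lay below the floor. As deposited, the 430B array read the shared probe sets 1.33 higher on the log2 scale than 430A did, so the deposited signals of the brain arrays are not on 1 scale. On the 430A scale the log2 ratio of Bcas1 was at least 5.22, since its kidney signal lay below the floor of 86.7 there. With 430B centred by itself it was 5.03, with kidney above the floor. The difference between these values therefore does not measure the effect of the scaling.

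**Figure D2:**
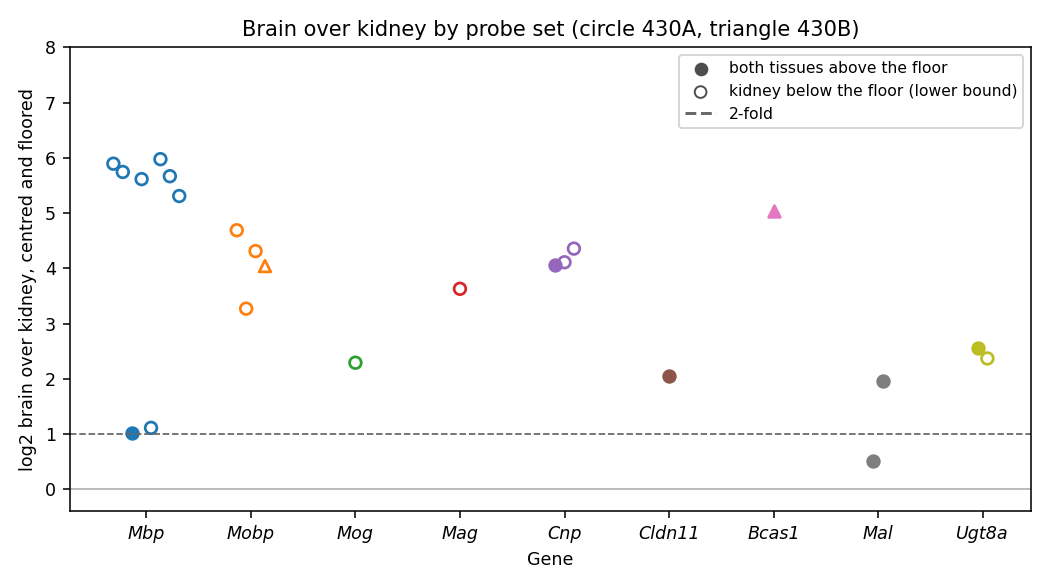
Log2 ratio of brain over kidney after centring and floor (vertical axis) for the 23 probe sets above the floor, by gene, with filled symbols where both tissues were above the floor and open ones where kidney was below it. The 2 low Mbp probe sets sit at 1.01 and 1.11, the other 6 between 5.31 and 5.98, and the Mal probe sets at 0.51 and 1.96.

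The promoters of genes that were high in brain together are shown for 3 members with an entry in the RefSeq promoter table, Mobp, Cnp and Mag. Among members with an entry, these had the largest ratios at the median floor. That choice depends on the floor, since the ratios of Mobp, Mag and Mog are lower bounds. With no floor above 1, Mog was at 9.83, against 6.34, 4.06 and 6.32 for Mobp, Cnp and Mag. The promoter of Mal, added after its values were seen, is shown for contrast. Each run holds the 250 bases before the transcription start in assembly GRCm38.p6, 5′ to 3′ on the gene's strand, and of the 3 Mag starts the most upstream is used. Capitals mark ACAAAG, the core of sites for Sox factors such as Sox10, on either strand. They also mark, on either strand, CTGGNAC (N for any base), taken here as a broad pattern for sites of the myelin regulator Myrf. Mobp lies at chr9:120149492-120149741 (plus strand), Cnp at chr11:100574689-100574938 (plus), Mag at chr7:30914923-30915172 (minus) and Mal at chr2:127656696-127656945 (minus).
Mobp: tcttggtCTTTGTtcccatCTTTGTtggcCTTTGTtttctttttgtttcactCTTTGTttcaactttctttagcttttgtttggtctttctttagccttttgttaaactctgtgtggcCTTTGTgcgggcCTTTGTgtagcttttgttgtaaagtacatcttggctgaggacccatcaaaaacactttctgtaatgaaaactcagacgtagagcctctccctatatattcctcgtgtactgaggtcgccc
Cnp: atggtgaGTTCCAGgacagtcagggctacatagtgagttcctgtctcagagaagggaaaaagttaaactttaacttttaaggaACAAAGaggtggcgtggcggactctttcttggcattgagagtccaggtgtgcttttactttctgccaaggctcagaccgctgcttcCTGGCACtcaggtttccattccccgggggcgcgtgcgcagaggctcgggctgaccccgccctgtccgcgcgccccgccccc
Mag: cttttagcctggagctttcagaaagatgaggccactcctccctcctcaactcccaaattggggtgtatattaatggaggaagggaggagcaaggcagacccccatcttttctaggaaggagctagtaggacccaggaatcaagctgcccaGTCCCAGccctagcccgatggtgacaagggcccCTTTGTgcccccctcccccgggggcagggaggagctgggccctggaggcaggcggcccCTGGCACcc
Mal: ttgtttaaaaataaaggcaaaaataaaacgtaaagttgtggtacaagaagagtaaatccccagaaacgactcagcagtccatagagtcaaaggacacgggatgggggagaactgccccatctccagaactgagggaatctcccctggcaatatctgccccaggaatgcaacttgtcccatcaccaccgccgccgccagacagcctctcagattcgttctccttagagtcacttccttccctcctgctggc

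The Mobp run held 6 matches of ACAAAG, all on the opposite strand (read as CTTTGT), between positions -243 and -115 from the start. Of 32851 promoter windows of this length, 1.74% held 2 or more. The Mobp window was the only 1 with 6 or more, a cut-off equal to its own count. Cnp and Mag held 1 match each, and 16.5% of all windows held at least 1. CTGGNAC occurred 2 times in Cnp, 2 times in Mag and 1 time in the window of Mog, against 16.1% of all windows with at least 1 and 1.58% with 2 or more. The letters CTGGCAC stood at -81 to -75 in Cnp and at -9 to -3 in Mag. Neither motif occurred in the windows of Mal, Cldn11 and Ugt8a. ACAATG (a variant Sox core), CAGCTG (an E-box of helix-loop-helix factors) and TATAAA occurred in none of the 7 windows searched, against 10.7%, 13.0% and 12.4% of all windows. The general E-box CANNTG, which includes CAGCTG, occurred in Cnp and Ugt8a and in 66.2% of all windows. The GC content of the Mobp window was 40.8%, against a median of 52.4% over all windows. A match is a run of letters, and binding was not measured here. No sequence is shown for Mbp and Bcas1.

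The other genes of the oligodendrocyte were described through lists: 71 genes in all, 63 of them measured and 58 above the floor. Of these 58, 30 lay 2-fold or more toward brain, 6 toward kidney and 22 toward neither. The shares over all genes were 18.2% toward brain and 26.4% toward kidney. The median log2 ratio was 1.19 against -0.08 over all genes. As deposited the split was 26 and 11, beside 24.2% and 26.6% of all genes. Of 29 further proteins of myelin and oligodendrocytes past the floor, brain was higher for 17 and kidney for 4 (median 1.62). Over all genes the shares at this setting were 18.2% and 26.4%. With the floor at the 75th percentile, which lowers every bounded ratio, the counts for these proteins were 11 and 3 of 24. Under that floor the shares over all genes were 12.6% and 27.9%. At the median floor the largest ratios were those of Tppp, a tubulin-binding protein (2743.7 in brain and 29.1 in kidney, 22.2-fold), and Plekhb1 (1737.4 and 91.5, at least 16.7-fold). Gpm6b, a membrane glycoprotein (2145.5 and 269.8, 14.2-fold), and Tspan2 (1334 and 91.9, at least 12.8-fold) came next. This order depends on the floor, since many of the ratios are lower bounds. With no floor above 1, Omg was at 7.96 and Hapln2 at 7.18, against 4.47 for Tppp. The 4 in kidney, named after their values were seen, were Ndrg1 (735.4 and 5114), Cd9 (294.3 and 1510.6), Cryab (388.7 and 1452.2) and Enpp6 (133.2 and 105.9). Enpp6, on 430B, fell under the threshold with 430B at the 430A scale (-0.16) or the floor at the 75th percentile (-0.76) and turned to 0.13 as deposited. Cryab fell under it with quantile normalization (-0.85).

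Of 11 transcription factors and receptors above the floor, brain was higher for 6 and kidney for none (median 1.61), beside 18.2% and 26.4% of all genes. They were led by Olig1, a factor that specifies the lineage (1276.3 and 2.2, at least 12.3-fold), and Gpr17, a receptor of premyelinating cells (754.8 and 1.5, at least 6.21-fold). Lpar1, a lysophosphatidic acid receptor (757.3 and 361, 3.76-fold), and Myrf, the factor that switches on myelin genes (385.9 and 92.1, at least 3.71-fold), followed. This order depends on the floor, since the ratios of Olig1, Gpr17 and Myrf are lower bounds. Olig2 (156.4 and 3) was in neither at the median floor but at 6.55 with no floor above 1, against 1.91 for Lpar1. With the floor at the 75th percentile 3 of 7 factors and receptors were higher in brain, beside 12.6% of all genes, and Myrf was at 0.59. Among 5 precursor genes past the floor, brain was higher for 3: the proteoglycan core protein Bcan (642.3 and 18.3), the phosphatase Ptprz1 (438 and 30.8) and Lhfpl3 (451.5 and 28.8). Ptprz1 and Lhfpl3 fell under the threshold, each at 0.77, with the floor at the 75th percentile. Pdgfra, the growth factor receptor of oligodendrocyte precursors and of stromal cells, was 4.52-fold higher in kidney (146.5 and 1187.2), and Cspg4 was in neither (129 and 178.6).

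Genes of myelin lipids lay on both sides, and their balance turned with the scaling. Of 13 above the floor, brain was higher for 4, kidney for 1 and neither for 8 (median 0.38). The shares over all genes were 18.2% toward brain and 26.4% toward kidney. With signals as deposited, brain was higher for 2 and kidney for 4 (median -0.46), beside 24.2% and 26.6% of all genes. With the floor at the 75th percentile, brain was higher for 1 of 12, Fa2h, and kidney for none. The shares over all genes were then 12.6% and 27.9%. Fa2h, which hydroxylates the fatty acids of galactolipids, had a brain fold of at least 8.82 (917.2 and 118.1). Ugcg, which makes glucosylceramide, was at least 2.67-fold higher (277.8 and 35.6), and Dhcr7, of cholesterol synthesis, at least 2.64-fold (274.2 and 150.5), though Dhcr7 gave 0.87 as deposited. Under the higher floor Ugcg was at 0.12 and Dhcr7 at 0.10. Galc, which degrades galactosylceramide, was at least 3.60-fold higher in kidney (46.4 and 671.1), and at -0.55 under the higher floor. Gal3st1, which sulfates the product of Ugt8a and was named after its values were seen, read 191 in brain and 277.1 in kidney and was in neither.

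**Figure D3:**
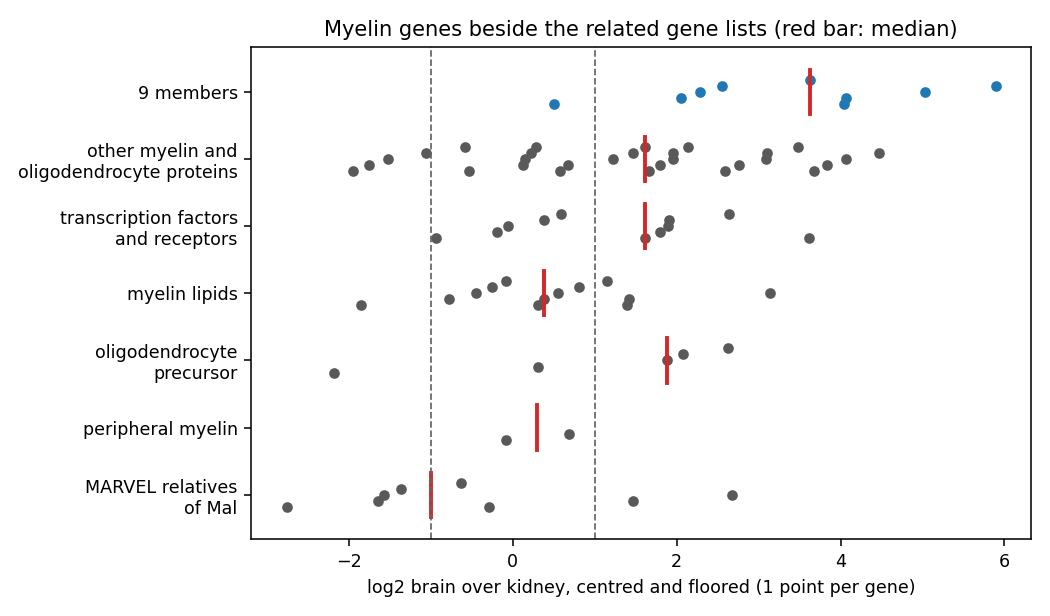
Log2 ratio of brain over kidney (horizontal axis, 1 point per gene above the floor) for the 9 myelin genes (blue) and 6 related gene lists (grey), with the median as a red bar and 2-fold as dashed lines. The median is 3.63 for the myelin genes, 1.62 for other proteins of myelin and oligodendrocytes, 0.38 for myelin lipids and -0.997 for the relatives of Mal. Where a gene below the floor in 1 tissue sits at the middle, as Mag does for the myelin genes, the median is itself a bound.

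Relatives of Mal with the same membrane fold (the MARVEL domain) were on both sides. Of 8 above the floor, brain was higher for 2 and kidney for 4 (median -0.997), where the shares over all genes were 18.2% and 26.4%. As deposited the counts were 1 and 5 (24.2% and 26.6% over all genes). With the floor at the 75th percentile they were 1 and 2 of 6 (12.6% and 27.9% over all genes). Cmtm5 was 6.38-fold higher in brain (2205.3 and 81.5), and Pllp, plasmolipin, also counted among the myelin proteins, 2.76-fold (434.4 and 281.6). The log2 ratio of Cmtm5 was 2.67, against at least 4.18 with 430B at the 430A scale or as deposited, where kidney lay below the floor. Without suffix-marked probe sets it was 4.01. Pllp fell under the threshold as deposited (0.63) and with the floor at the 75th percentile (0.76). Cmtm6 was at least 6.77-fold higher in kidney (74.9 and 1262.4), Myadm 3.12-fold (350.6 and 1959) and Cmtm3 at least 2.96-fold (90.5 and 552.3). Without suffix-marked probe sets Myadm was at -0.58, under the threshold, and with the floor at the 75th percentile Cmtm3 was at -0.27.

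Markers of other cells were read on the same arrays. Of 5 genes of peripheral myelin measured, Ncmap, Pmp2 and Egr2 lay below the floor in both tissues (kidney signals of 3.3, 2.5 and 20.8). Pmp22 read 468.9 in brain and 890.5 in kidney, and Drp2 573.1 and 84.2, and neither passed the threshold. Drp2, however, reached at least 2.24 with 430B at the 430A scale or as deposited, where kidney lay below the floor. All 6 markers of the distal nephron (loop of Henle to collecting duct) were higher in kidney, where they read 523.3 to 7093.2 against 3.4 to 109 in brain. All 5 neuron markers measured, of 6 listed, were higher in brain, with kidney signals of 0.2 to 43.3. So were 5 of 6 astrocyte markers, while Aqp4 was in neither (763.4 and 754.8). Of 6 proximal tubule markers 5 were higher in kidney, and Lrp2, by a probe set on 430B, was not (311.7 in brain and 28.1 in kidney). The shares over all genes were 18.2% toward brain and 26.4% toward kidney. With the floor at the 75th percentile the nephron markers Cldn16 (-0.19) and Slc22a6 (-0.62) fell under the threshold, as did the astrocyte marker Gja1 as deposited (0.97). The part of other cell types in the kidney signals of Mal, Ugt8a, Cldn11 and Cnp was not tested.

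The last comparison concerned the opposite strand, for which 3 of the 9 genes had a reverse probe set. The reverse probe set of Bcas1 read 84.3 in brain and 15.2 in kidney on U74B, below the floor of 98.5 (the higher of both arrays' 75th percentiles). That of Cldn11 read 26 and 12.7 and that of Mag 24.2 and 3.9 on U74A, below the floor of 63.5. None of the 3 was therefore above the floor, against 27.7% of all reverse probe sets on U74A and 32.3% on U74B. The same genes on the sense arrays read 4539.4, 694.8 and 1286.3 in brain, by other probes. Within the brain U74B array the reverse signal of Bcas1 stood at percentile 71.0, and within U74A those of Cldn11 and Mag at 54.7 and 53.2. In kidney they stood at 23.7, 40.7 and 15.6. All 3 brain signals exceeded the kidney signals, but below the floor no ratio was taken. The probe sets of Cldn11 and Mag carry the mark _f_at, given to probe sets that match a family of sequences. Of a further reverse probe set that lists Cnp beside a second gene, no value is given.

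**Figure D4:**
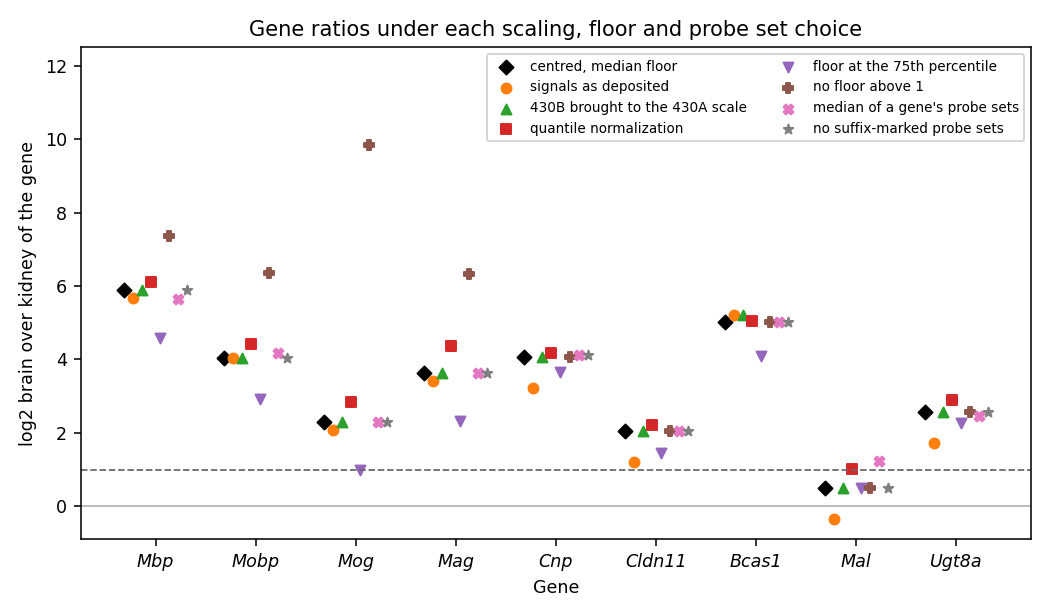
Log2 ratio of brain over kidney (vertical axis) of each myelin gene under the centred scale with the median floor (black diamonds) and 7 other scalings, floors or probe set choices, with 2-fold dashed. Mal lies between -0.33 and 1.23, Mog between 0.99 and 9.83, and the other 7 genes stay above 2-fold under every setting shown.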

How the data were processed

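Sense RNA of brain (430A, 430B) and kidney (430 2.0) and reverse probe sets of both tissues (U74A, U74B) were read on 1 array per tissue and design. The submitters' processing notes name MAS5, and the deposited column is its signal, a linear intensity; per the labels the authors kept reverse probe sets by the manufacturer's mask. Aligners and builds do not apply, and detection calls were not used here. Genes were named through the platform annotation, with symbols updated through RefSeq (GRCm38.p6).

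From these, log2 ratios were computed with Python 3.11.15, pandas 2.3.3 and numpy 2.4.6. Each sense pair was centred on the median ratio of probe sets above both medians, the floor being the higher median after centring. The U74 pairs were used as deposited, with a floor at the higher 75th percentile. A gene stood by the probe set of highest mean percentile over both tissues. Named genes were all members and, of the lists other than the neuron, astrocyte and nephron markers, the 4 genes with the largest ratio. A list with 4 or fewer genes above the floor was named whole. Other genes were named after their values were seen, among them Pllp, Cspg4, Aqp4, Gja1, Lrp2, Slc22a6 and Cldn16. A planned search for the genes nearest to Mbp, Cnp and Mal is not given, since it sets levels of different probe sets against each other. The members and lists were chosen with earlier results of these data known. The counting was tested on simulated data. With 1 array per group nothing was tested for significance, and precision is limited by the number of arrays.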

Additional observations from a re-analysis of the deposited data

How the results depend on the processing

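For the sense ratios, 7 other settings were tried. The count of 8 myelin genes higher in brain ran from 7 (floor at the 75th percentile) to 9 (quantile normalization, or the median over each gene's probe sets), and none was higher in kidney under any of them. The median log2 ratio of the 9 genes, 3.63, was 3.22 with signals as deposited, 4.18 with quantile normalization, 2.33 with the floor at the 75th percentile and 5.03 with no floor above 1. It was 3.63 with 430B at the 430A scale, with the median over each gene's probe sets and without suffix-marked probe sets. Each time this was the ratio of Mag, whose single probe set, on 430A, these settings leave unchanged. The 30 companion genes higher in brain fell to 16 with the floor at the 75th percentile, and the 6 higher in kidney were 11 as deposited. Over all genes, 12.6% were higher in brain under that floor and 26.6% higher in kidney as deposited. With the U74 floor at the median, 3 reverse probe sets were above it in place of 0, because their brain signals exceed 21.7 on U74A and 42.2 on U74B. Centring, quantile normalization and the 90th percentile each gave 0. No paired analysis was possible because each tissue had 1 array per design. For the same reason no replicate could be left out. Kidney signals below the floor limit the ratios of Mog, Mag and Mobp and of 7 of the 8 Mbp probe sets. The same holds for the Cnp probe sets at 90.3 and 53.4 in kidney and the Ugt8a probe set at 15.9.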

Other observations

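Among the 9 reverse probe sets of the companion oligodendrocyte genes, 1 was above the floor, against 27.7% of all on U74A and 32.3% on U74B. It was that of Gpm6b, a membrane glycoprotein, chosen here after its values were seen. The probe set read 194.8 in brain and 83.6 in kidney on U74B, at least 1.98-fold higher in brain and just under the threshold. The sense probe set of Gpm6b was 14.2-fold higher in brain. The next highest was that of Ermn, a cytoskeletal protein of oligodendrocytes, at 87 in brain and 29.3 in kidney, below the floor of 98.5. The other 7 read 35.7 or less in brain.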
